A study of Homo sapiens with 14 samples.

Results

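Panc-1 and AsPC-1 are human pancreatic cancer cell lines, and the genes described here were on in either line and off in the other in every library. A gene was taken when it had 10 RPKM or more in every library of either line and 0.5 RPKM or less in every library of the other, where RPKM is reads per kilobase of transcript per M mapped reads. Of the 23040 genes listed, 148 met this rule: 95 were on in Panc-1 and off in AsPC-1 (0.412% of all genes), and 53 were on in AsPC-1 and off in Panc-1 (0.23%). Among the 5566 genes that had 10 RPKM or more in every Panc-1 library the share off in AsPC-1 was 1.71%, and among the 5084 such genes of AsPC-1 the share off in Panc-1 was 1.04%. The levels in both lines chose these genes, so their difference between the lines is given as values and carries no test.

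RNA sequencing of total RNA covered 7 libraries of each line. Serum-starved cells received epidermal growth factor (EGF, 50 ng/ml) or angiogenin (ANG, also called hRNase5, 1 µg/ml) for 1, 5 or 24 h, and each line had 1 untreated mock library, whose time and serum are not given in the labels. Each combination of line, ligand and time held 1 library, so the spread over a line's 7 libraries is the spread over treatments and times. Each side of the comparison is a single established cell line. Depth estimated from the files was 11.23 to 16.92 M reads in Panc-1 and 18.91 to 23.95 M in AsPC-1, at which 0.5 RPKM in a transcript of 2 kb is worth 11.2 to 16.9 and 18.9 to 23.9 reads. Of 10 markers of ductal and general epithelium, 8 reached 1 RPKM in both lines, among them KRT8, KRT18 and KRT19, while CFTR stayed under 0.5 RPKM in all 14 libraries. The summed level of 9 acinar markers was at most 0.13 RPKM in Panc-1, against 0.98 RPKM in AsPC-1, and that of 5 endothelial markers at most 0.11 and 0.14 RPKM. VIM, a mesenchymal intermediate filament, was high in both, at 2044 to 2755 RPKM in Panc-1, against 1269 to 1798 RPKM in AsPC-1. SNAI2, a transcriptional repressor of E-cadherin, had 0.34 to 0.81 RPKM in Panc-1, against 19.6 to 119 RPKM in AsPC-1. The summed level of 8 fibroblast and stellate markers was 1.89 to 2.73 RPKM in Panc-1, against 27.15 to 47.63 RPKM in AsPC-1. LUM, a matrix proteoglycan, made up most of the AsPC-1 sum at 0.3 to 0.99 RPKM in Panc-1, against 26.5 to 46.3 RPKM in AsPC-1, while FAP was listed at 0 in all 14 libraries, COL1A2, COL3A1 and PDGFRB stayed under 0.5 RPKM, and COL1A1 had 0.33 to 0.71 RPKM in Panc-1, against at most 0.01 RPKM in AsPC-1.

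Cell lines keep much of the gene programme of the tumour they came from. In pancreatic cancer, epithelial and gut-like programmes (brush border proteins, mucins, digestive enzymes) are set against mesenchymal ones (N-cadherin, matrix proteins and the enzymes that process them). Genes can also be silent because of DNA loss, promoter methylation or imprinting, the parent-of-origin marking that leaves a single allele active. None of these was measured here.

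The genes on in Panc-1 were led by MMP2 (hg19, chromosome 16, 55513081 to 55540586, plus strand), a secreted enzyme that cleaves basement membrane collagen. MMP2 had 124 to 162 RPKM in Panc-1 (median 145), against 0.34 to 0.47 RPKM in AsPC-1 (median 0.39). APOE (chromosome 19, 45409039 to 45412650), the lipid carrier apolipoprotein E, had 106 to 133 RPKM in Panc-1 (median 129.5), against 0.14 to 0.32 RPKM in AsPC-1. No other gene of the 95 reached 100 RPKM in every Panc-1 library. FBXO27, a substrate adaptor of an F-box ubiquitin ligase, came next at 86.9 to 118 RPKM in Panc-1, against 0.14 to 0.38 RPKM in AsPC-1.

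The list of mesenchymal genes held 4 of the 95 (MMP2, SPARC, LOXL2 and CDH2) and no AsPC-1 gene. SPARC, a secreted matrix-binding protein, had 35.9 to 44.6 RPKM in Panc-1, against 0.06 to 0.2 RPKM in AsPC-1. LOXL2, which cross-links collagen, had 32.7 to 49.1 RPKM in Panc-1, against 0.1 to 0.25 RPKM in AsPC-1. CDH2, N-cadherin, had 18.3 to 23.4 RPKM in Panc-1, against 0.06 to 0.11 RPKM in AsPC-1. PLOD2, which hydroxylates collagen lysines before cross-linking, had 43.0 to 68.9 RPKM in Panc-1, against 0.1 to 0.24 RPKM in AsPC-1. All of these were off in AsPC-1, the line with the higher SNAI2. Of 18 further mesenchymal genes tested between the lines with limma, 12 were higher and 4 lower in Panc-1. Over all 13427 genes tested, 39.6% were higher and 29.3% lower. The largest differences among the 18, those of SNAI2, TNC and S100A4, were all lower in Panc-1. TNC had 1.43 to 2.13 RPKM in Panc-1, against 10.6 to 32.8 RPKM in AsPC-1, and S100A4 had 305 to 403 and 2038 to 2480 RPKM. The separate list of 68 extracellular matrix genes and matrix enzymes held no gene on in Panc-1 and 1 on in AsPC-1, THBS2, and of its other 40 genes tested 17 were higher and 20 lower in Panc-1 (median difference -0.35).

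Signalling genes on in Panc-1 included the membrane-bound chemokine CX3CL1, at 55.0 to 117 RPKM in Panc-1, against 0.13 to 0.37 RPKM in AsPC-1, and CCL5, a chemokine that attracts T cells, at 18.5 to 78.4 RPKM in Panc-1, against 0.11 to 0.31 RPKM in AsPC-1. CD70, the ligand of the lymphocyte receptor CD27, had 35.95 to 43.7 RPKM in Panc-1, against 0.05 to 0.32 RPKM in AsPC-1. DKK3, a secreted protein of the Dickkopf family, had 38.8 to 58.0 RPKM in Panc-1, against 0.24 to 0.46 RPKM in AsPC-1. DLL3, a ligand of the Notch family best known from neuroendocrine tumours, had 32.7 to 49.9 RPKM in Panc-1, against 0.17 to 0.42 RPKM in AsPC-1. MAP1B, which binds microtubules, had 37.9 to 70.3 RPKM in Panc-1, against 0.11 to 0.23 RPKM in AsPC-1, BASP1, a membrane protein of growth cones, had 51.3 to 74.8 and 0.09 to 0.42 RPKM, and ROBO1, the receptor of SLIT guidance proteins, had 20.1 to 25.2 and 0.03 to 0.11 RPKM, the last being the single on/off gene among 56 neural and neuroendocrine genes. Of the granule proteins of neuroendocrine cells, CHGB had 1.07 to 2.07 RPKM in Panc-1, against at most 0.02 RPKM in AsPC-1, and CHGA was at most 0.09 RPKM in Panc-1 and listed at 0 in AsPC-1.

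Metabolic and detoxification genes formed a further group. PHGDH, the first enzyme of serine synthesis, had 38.5 to 49.9 RPKM in Panc-1, against 0.07 to 0.35 RPKM in AsPC-1. AKR1B1, aldose reductase, was among the steadiest genes, at 35.1 to 39.5 RPKM in Panc-1, against 0 to 0.31 RPKM in AsPC-1. The glutathione transferases GSTT1 and GSTM3 had 18.3 to 32.6 and 11.3 to 18.2 RPKM in Panc-1, and at most 0.15 RPKM each in AsPC-1. GSTM3 has close relatives on its chromosome, and its neighbours GSTM1 and GSTM2 were at most 0.23 and 1.33 RPKM in Panc-1, against 0.02 RPKM in AsPC-1. GSTT1 is a gene that many people lack on both chromosomes, which levels of RNA cannot show. ANXA6, a calcium-dependent membrane-binding protein, had 42.7 to 53.7 RPKM in Panc-1, against 0.06 to 0.19 RPKM in AsPC-1, SLC9A7, a sodium/proton exchanger of the Golgi network, 40.7 to 55.8 and 0.19 to 0.43 RPKM, and SMARCA1, the motor of an ISWI nucleosome remodeller, 43.6 to 57.2 and 0.1 to 0.25 RPKM.

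Of 32 imprinted genes listed, 3 were on/off genes (MEG3, SNRPN and SNURF), all on in Panc-1. SNURF and SNRPN had 49.8 to 61.1 and 35.6 to 43.7 RPKM in Panc-1, against at most 0.3 and 0.22 RPKM in AsPC-1. They share exons on the same strand of chromosome 15, so they are 1 locus counted under 2 names and their reads are not independent. MEG3, a long noncoding RNA expressed from the maternal allele, had 19.9 to 43.7 RPKM in Panc-1, against 0.04 to 0.14 RPKM in AsPC-1. H19, another maternally expressed noncoding RNA, missed the rule only through the off limit, at 147 RPKM or more in every Panc-1 library, against 0.34 to 1 RPKM in AsPC-1. Of 16 other imprinted genes tested with limma, 11 were higher and 3 lower in Panc-1, beside 39.6% and 29.3% of all 13427 genes. Of 44 cancer-testis antigens, which healthy adults make mainly in the testis, PRAME and DDX43 were on in Panc-1 at 18.99 to 55.3 and 13.1 to 19.95 RPKM, and were at most 0.14 and 0.09 RPKM in AsPC-1.

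Under the fixed limits, which left out abundant AsPC-1 genes above 0.5 RPKM in Panc-1, the genes on in AsPC-1 were fewer and lower. The gene with the highest minimum was USH1C (hg19, chromosome 11, first base 17515442), which codes for harmonin, a scaffold of the links between microvilli, at 0.24 to 0.48 RPKM in the Panc-1 libraries where it was off and 36.9 to 55.0 RPKM in AsPC-1 (median 40.9). TNS4, a tensin family protein at cell adhesions, had 0.31 to 0.5 RPKM in Panc-1, against 36.8 to 75.2 RPKM in AsPC-1, and its AsPC-1 median of 42.4 RPKM was the highest of the 53. MYO7B, the myosin partner of harmonin, had 0.09 to 0.21 RPKM in Panc-1, against 17.1 to 24.7 RPKM in AsPC-1. MYO1A, the myosin that ties the microvillar core to its membrane, had 0.21 to 0.5 RPKM in Panc-1, against 16.3 to 53.5 RPKM in AsPC-1. EPS8L3, of the EPS8 actin-regulating family, had 0.16 to 0.45 RPKM in Panc-1, against 17.6 to 61.0 RPKM in AsPC-1.

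MUC13, a transmembrane mucin and the single on/off gene among 38 mucins and mucosal surface genes, had 0.27 to 0.43 RPKM in Panc-1, against 19.4 to 57.5 RPKM in AsPC-1. SLC6A20, a proline transporter of kidney and gut, had 0.23 to 0.36 RPKM in Panc-1, against 18.95 to 50.1 RPKM in AsPC-1. ABP1, diamine oxidase, which breaks down histamine, had 0.08 to 0.41 RPKM in Panc-1, against 20.3 to 48.6 RPKM in AsPC-1. FGF19, a hormone of the ileum that restrains bile acid synthesis, had 0.12 to 0.42 RPKM in Panc-1, against 21.99 to 45.8 RPKM in AsPC-1. B3GALT5, a galactosyltransferase that builds type 1 chains of glycans, had 0.13 to 0.46 RPKM in Panc-1, against 21.98 to 41.04 RPKM in AsPC-1. CYP3A5, a drug-metabolizing cytochrome, had 0.22 to 0.44 RPKM in Panc-1, against 11.3 to 63.3 RPKM in AsPC-1, and ALDH3A1, an aldehyde dehydrogenase, had 0.11 to 0.42 and 12.3 to 46.3 RPKM.

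Further AsPC-1 genes act in signalling and adhesion. TNFSF15, a cytokine of the TNF family, had 0.13 to 0.36 RPKM in Panc-1, against 17.6 to 27.4 RPKM in AsPC-1. ITGB6, the beta subunit of the epithelial integrin that activates TGF-beta, had 0.13 to 0.42 RPKM in Panc-1, against 10.6 to 20.3 RPKM in AsPC-1. HOXA10, a homeobox factor, had 0.14 to 0.34 RPKM in Panc-1, against 10.5 to 19.5 RPKM in AsPC-1, while BARX1, another homeobox factor, was on in Panc-1 at 26.5 to 32.1 RPKM and at most 0.11 RPKM in AsPC-1. GABRE, a subunit of GABA-A receptors, had 0.15 to 0.38 RPKM in Panc-1, against 19.97 to 32.5 RPKM in AsPC-1. ZHX2, a transcriptional repressor, was the steadiest AsPC-1 gene, at 0.16 to 0.39 RPKM in Panc-1, against 17.0 to 20.95 RPKM in AsPC-1. FAM83B had 0.11 to 0.46 RPKM in Panc-1, against 18.7 to 31.7 RPKM in AsPC-1, and C4BPB, a chain of the complement regulator C4b-binding protein, 0.11 to 0.44 and 17.7 to 37.9 RPKM.

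CDKN2A (hg19, chromosome 9, 21967751 to 21994490, minus strand), which codes for the cell cycle inhibitor p16 and for p14ARF, was off in Panc-1 at 0.11 to 0.32 RPKM and on in AsPC-1 at 23.7 to 39.1 RPKM. Its neighbours followed it in part. CDKN2B, which codes for p15, had 0.02 to 0.18 RPKM in Panc-1, against 3.77 to 28.3 RPKM in AsPC-1, and MTAP, a salvage enzyme on the other side, had 1.78 to 2.72 RPKM in Panc-1, against 13.1 to 17.4 RPKM in AsPC-1. Neither met the rule, CDKN2B through its AsPC-1 level and MTAP through its Panc-1 level. DNA copy number was not measured, and a level of RNA does not tell a deleted gene from a silent one.

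**Figure D1:**
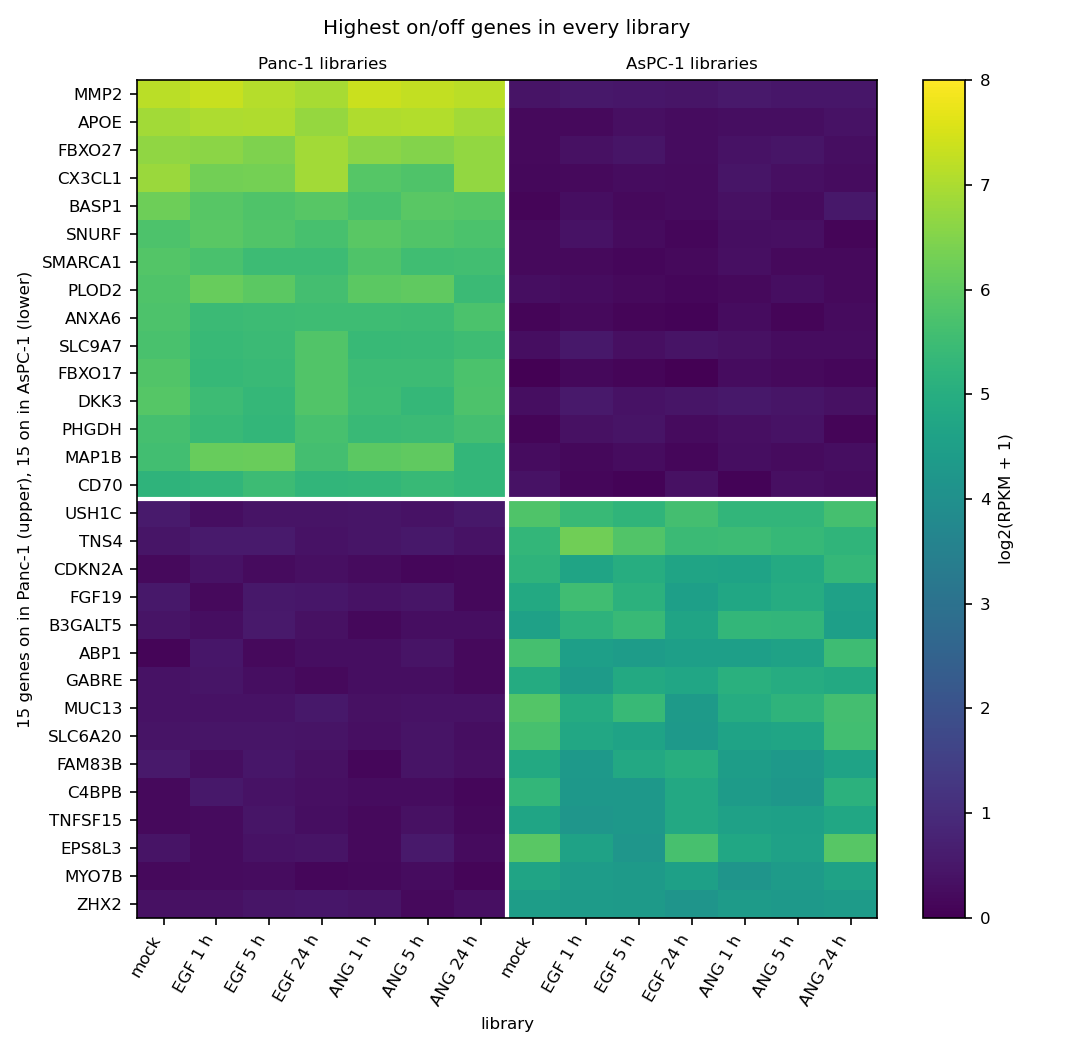
Level of the 15 genes with the highest minimum in each direction, as log2(RPKM + 1) by colour, in the 7 Panc-1 libraries (left) and the 7 AsPC-1 libraries (right), 1 column per library. The upper rows are on in Panc-1 and led by MMP2 at 124 to 162 RPKM; the lower rows are on in AsPC-1 and led by USH1C at 36.9 to 55.0 RPKM.

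Of 20 functional gene lists with 1027 genes in the files, 16 held an on/off gene, and these took 21 of the 95 Panc-1 genes and 11 of the 53 AsPC-1 genes. Most on/off genes therefore fell in no list. The 4 lists without any were epithelial adhesion and tight junctions (47 genes), keratins (18), endodermal and epithelial transcription factors (31) and zinc finger genes of chromosome 19 (254). Their other genes still differed between the lines when tested with limma, where 39.6% of 13427 genes were higher in Panc-1 and 29.3% lower. Of 41 adhesion genes tested, 8 were higher and 29 lower in Panc-1, with a median difference of -1.27 on the log2(RPKM + 1) scale, against 0.13 over all genes. EPCAM, an adhesion protein of epithelia, had 4.88 to 5.58 RPKM in Panc-1, against 149 to 230.1 RPKM in AsPC-1. Of 22 endodermal factors, 6 were higher and 13 lower in Panc-1, and HNF4A had 0.32 to 0.61 RPKM in Panc-1, against 22.8 to 46.8 RPKM in AsPC-1, outside the rule by its highest Panc-1 library. Of 9 keratins, 2 were higher and 6 lower in Panc-1. Of 207 zinc finger genes, 159 were higher and 9 lower in Panc-1, with a median difference of 0.96.

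Of 24 other mucins and mucosal surface genes none was higher and 23 were lower in Panc-1, with a median difference of -3.48. Of 28 other genes of xenobiotic and retinoid metabolism, 4 were higher and 22 lower in Panc-1, although AKR1B1 of that list was on in Panc-1. Of 24 other proteases and serpins, 8 were higher and 15 lower in Panc-1, with SERPINA3, a secreted inhibitor of serine proteases, on in Panc-1 and KLK6 and KLK8 on in AsPC-1. The list of S100 proteins and annexins held ANXA6 on in Panc-1 and ANXA13 on in AsPC-1, and of its other 18 genes 3 were higher and 12 lower in Panc-1. Of 16 other metallothionein and glutathione genes, 12 were higher and 3 lower in Panc-1, and of 44 other interferon and antigen presentation genes, where MX2 was on in Panc-1, 30 were higher and 8 lower. Of 22 other neural and neuroendocrine genes, 14 were higher and 5 lower in Panc-1, of 42 other homeobox genes 25 and 12, and of 23 other genes around p16, p53 and SMAD4 12 and 6. Of 41 other integrins and growth factor receptors 12 were higher and 21 lower in Panc-1, of 27 other chemokines and cytokines 10 and 12, and of 22 other lineage surface antigens 11 and 8. Of the cancer-testis antigens outside the rule, 1 was high enough to test, and it was lower in Panc-1.

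The highest library exceeded the lowest by a median of 1.42 times over the 95 Panc-1 genes, and 82 of them (86.3%) stayed within 2 times, beside a median of 1.40 times and 86.9% of all genes with 10 RPKM or more in every Panc-1 library. Over the 53 AsPC-1 genes the median was 2.15 times, and 21 (39.6%) stayed within 2 times, beside 1.61 times and 72.6% of such AsPC-1 genes. The AsPC-1 genes thus ranged more widely across the libraries than other genes at 10 RPKM or more, a description with no test. The widest ranges were those of CCL5 in Panc-1, 4.23 times, and of LGALS2, a lectin, in AsPC-1, 7.28 times. Threshold values cut through continuous distributions. Just inside the on threshold in Panc-1 lay B3GALNT1 at a minimum of 10.15 RPKM and just outside it STK32B at 9.68 RPKM; in AsPC-1 MCC was inside at 10.0 RPKM and DPP4, a brush border peptidase, outside at 9.99 RPKM. At the off threshold, ZNF518B was inside with a maximum of 0.48 RPKM in AsPC-1 and NUPR1 outside at 0.51 RPKM, and MYO1A, POF1B and TNS4 were inside with a maximum of 0.5 RPKM in Panc-1 and DSG3, a desmosomal cadherin, outside at 0.53 RPKM.

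The off side was not equally dark in the lines. For each gene the level in the off library was divided by that in the on library of the same condition, and the median over the 7 conditions was taken. Over the 95 genes on in Panc-1, the AsPC-1 level was a median of 0.343% of the Panc-1 level (quartiles 0.247% and 0.535%). Over the 53 genes on in AsPC-1, the Panc-1 level was a median of 1.01% of the AsPC-1 level (quartiles 0.801% and 1.32%). The off maximum exceeded 0.25 RPKM for 26 of the 95 and for 44 of the 53. These medians rest on genes chosen by an off limit and are a description.

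The same held for all genes with 10 RPKM or more in every library of a line and a span of at least 400 bases. Of 5231 such genes of Panc-1, 77 had 1% or less of their Panc-1 level in the AsPC-1 library of every condition. Of 4797 such genes of AsPC-1, 0 had 1% or less of their AsPC-1 level in the Panc-1 library of every condition. Among genes with 100 RPKM or more in every library of a line, the lowest median share was that of APOE in Panc-1, 0.181%, and that of COL17A1 in AsPC-1, 0.831%. COL17A1, a collagen of hemidesmosomes, had 3.77 to 5.48 RPKM in Panc-1, against 461 to 584 RPKM in AsPC-1. CEACAM6, a carcinoembryonic antigen relative, had 6.89 to 11.5 RPKM in Panc-1, against 580 to 1030 RPKM in AsPC-1 (median share 1.23%), and CDH17, a cadherin of intestine, had 4.88 to 7.74 and 523 to 722 RPKM (1.07%). Abundant AsPC-1 genes of this kind therefore sat above 0.5 RPKM in Panc-1 and were left out of the on/off genes by the fixed limit. Whether these reads arose in Panc-1 cells or were carried over from AsPC-1 libraries or cells was not tested. The Panc-1 values of the 53 genes, and the count of 53 beside 95, are therefore levels as listed in the files. The lower AsPC-1 levels of the 53 also depend on the fixed limit.

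**Figure D2:**
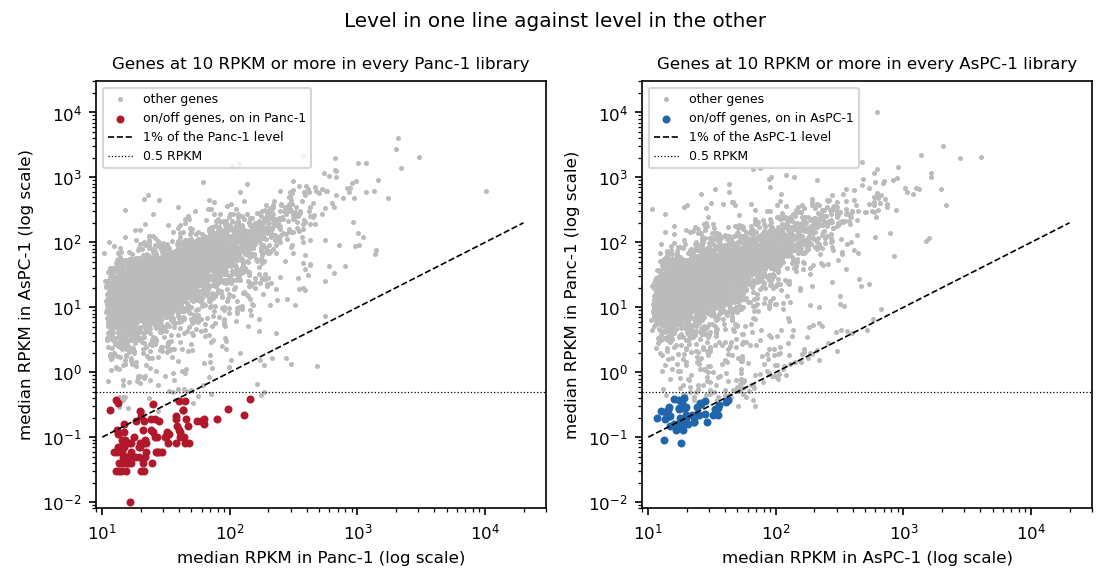
Median RPKM in the other line (vertical, log scale) against median RPKM in Panc-1 (left) or AsPC-1 (right; horizontal, log scale) of genes with 10 RPKM or more in every library of that line, with medians of 0 drawn at 0.01, on/off genes coloured, a dashed line at 1% and a dotted line at 0.5 RPKM. Coloured points lie at a median of 0.343% for Panc-1 and 1.01% for AsPC-1, and few AsPC-1 genes of any level fall well below the dashed line.

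Replacing the fixed limit by a share, with the off library at no more than 2% of the paired on library in every condition, a choice made after the data were seen, gave 112 genes on in Panc-1 and 64 on in AsPC-1. Of the 112, 90 were on/off genes by the fixed limit (94.7% of the 95) and 22 were not. Of the 64, 26 were on/off genes by the fixed limit (49.1% of the 53) and 38 were not. Those 38 included COL17A1, CEACAM6 and CDH17. Of the 38, 22 had 50 RPKM or more in every AsPC-1 library, and of the genes added in Panc-1 13 had that level there. The 22 added in Panc-1 included CCL2, a chemokine that attracts monocytes, at 368 to 592 RPKM in Panc-1, against 1.06 to 1.91 RPKM in AsPC-1, L1CAM, a neural adhesion protein, at 152 to 227 and 0.46 to 0.89 RPKM, and LDHB, a lactate dehydrogenase subunit, at 136 to 213 and 0.36 to 1 RPKM. 

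On/off genes lay on most chromosomes. Chromosome 15 held 7 of the 95 Panc-1 genes (7.37%), against 3.48% of genes with 10 RPKM or more in every Panc-1 library, while chromosomes 12 and 13 held none. Those 7 count SNURF and SNRPN separately, although they are 1 locus. Chromosome 7 held 7 of the 53 AsPC-1 genes (13.2%), against 5.29% of genes with 10 RPKM or more in every AsPC-1 library. The genes with 10 RPKM or more counted here had a span of at least 400 bases. No test was made of these shares.

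Within 500 kb of another gene on in the same line lay 10 of the 95 Panc-1 genes (10.5%), in 4 clusters, and 6 of the 53 AsPC-1 genes (11.3%), in 3 clusters. For comparison, genes with 10 RPKM or more in every library of a line and a span of at least 400 bases were counted. Of these, 6.37% in Panc-1 had a Panc-1 on/off gene within 500 kb, and 4.11% in AsPC-1 had an AsPC-1 one. Most on/off genes thus stood alone. Among the 10 Panc-1 genes, SNRPN and SNURF are 1 locus under 2 names, so 1 of the 4 clusters is that locus alone. The clusters on chromosome 15 were the overlapping pair SNRPN and SNURF, and HOMER2 and HDGFRP3, between which BTBD1 was on in both lines, at 56.3 to 70.6 RPKM in Panc-1, against 22.6 to 27.2 RPKM in AsPC-1.

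Clusters of 3 genes were found on chromosomes 16 and 19, both on in Panc-1. On chromosome 16 (hg19, 55513081 to 55867075) MMP2, LPCAT2, an acyltransferase of phospholipids and lipid droplets, and CES1, a carboxylesterase, lay within 354 kb. LPCAT2 had 28.9 to 35.4 RPKM in Panc-1, against 0.05 to 0.17 RPKM in AsPC-1, and CES1 had 13.8 to 23.3 and 0 to 0.12 RPKM. None of the 4 other genes between them reached 1 RPKM in either line, and the flanking IRX6 and CES5A were at most 0.05 RPKM, so no gene of this stretch other than the on/off genes reached 1 RPKM.

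The stretch on chromosome 19 (39432042 to 39999121) differed in kind. It ran from FBXO17 and FBXO27, neighbouring F-box genes, to DLL3 over 567 kb and held 17 other genes, 12 of which had a median of 1 RPKM or more in at least 1 line. Of these 12, 11 had a median at least 3 times higher in Panc-1, as were the on/off genes themselves. PAF1, a subunit of an elongation complex, had 318.5 to 379 RPKM in Panc-1, against 16.9 to 24.4 RPKM in AsPC-1, SUPT5H, an elongation factor, 349 to 478 and 28.7 to 35.0 RPKM, and TIMM50, of the mitochondrial import channel, 427 to 595.5 and 24.4 to 30.9 RPKM. FBXO17 had 39.6 to 55.95 RPKM in Panc-1, against 0 to 0.2 RPKM in AsPC-1. Gene dosage was not measured.

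**Figure D3:**
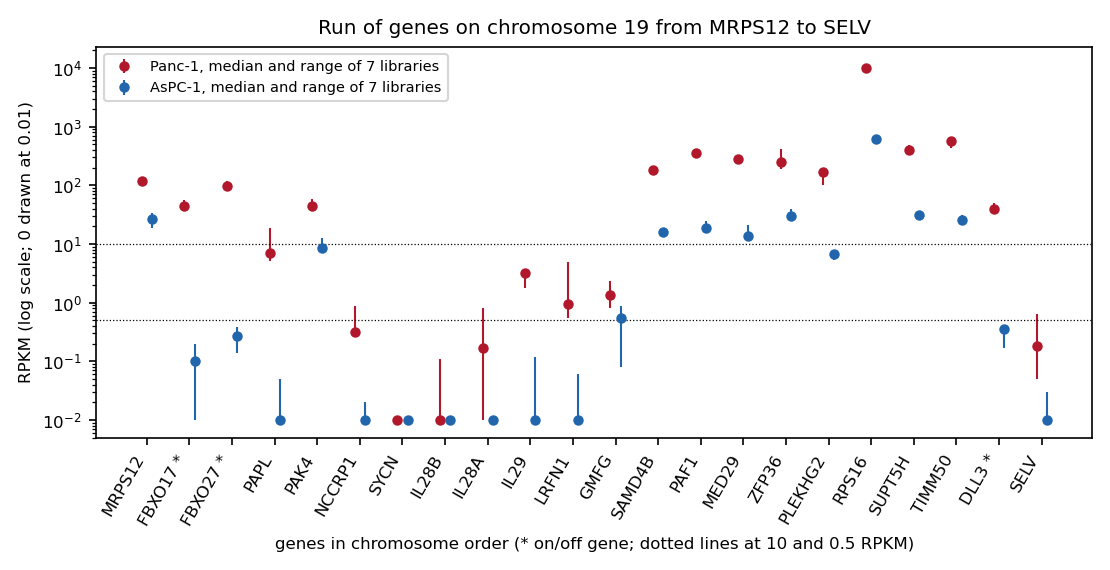
RPKM (log scale, 0 drawn at 0.01) of the genes from MRPS12 to SELV in chromosome order, points and bars being the median and range of 7 libraries in Panc-1 and in AsPC-1, with asterisks on the on/off genes. FBXO17, FBXO27 and DLL3 fall under 0.5 RPKM in AsPC-1, while genes such as PAF1 and TIMM50 are present in both lines and higher in Panc-1.

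In AsPC-1 the clusters were pairs. KLK6 and KLK8, secreted serine proteases of the kallikrein family on chromosome 19, had 0.05 to 0.27 and 0.07 to 0.47 RPKM in Panc-1, against 10.4 to 21.1 and 11.7 to 29.4 RPKM in AsPC-1. KLK7 between them followed at 0.03 to 0.16 RPKM in Panc-1, against 4.77 to 7.04 RPKM in AsPC-1, while KLK5 and KLK9 on either side were at most 0.12 RPKM in Panc-1, against 0.77 RPKM in AsPC-1. KLK10 farther on had 1.8 to 3.78 RPKM in Panc-1, against 126 to 328 RPKM in AsPC-1. CPVL, a carboxypeptidase, and PRR15 on chromosome 7 flanked CHN2, which had at most 0.09 RPKM in Panc-1, against 0.86 to 11.8 RPKM in AsPC-1. C4BPB shared its stretch of chromosome 1 with an open reading frame that has no other name in the files. The genes between them, YOD1 and PFKFB2, were present in both lines. YOD1 had 3.32 to 4.97 RPKM in Panc-1, against 5.77 to 13.41 RPKM in AsPC-1, and PFKFB2 had 6.53 to 7.79 and 11.88 to 23.2 RPKM.

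Genes on in opposite lines could also be neighbours. GSTM3, on in Panc-1, and EPS8L3, on in AsPC-1, lay 9.04 kb apart on chromosome 1. HEG1, a mucin-like receptor of endothelium, on in Panc-1 at 18.2 to 26.5 RPKM and at most 0.22 RPKM in AsPC-1, lay 31.0 kb from MUC13, on in AsPC-1.

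Promoters of the Panc-1 genes held more CpG pairs than those of the AsPC-1 genes, a description for which no test was made. The RefSeq promoter table (GRCh38.p14) holds 250 bases before to 50 after the start that it lists for each gene. It matched 64 of the 95 Panc-1 genes and 37 of the 52 AsPC-1 genes of at least 400 bases. Matching was by symbol and chromosome, not by position, so a window can lie away from the start used for the RPKM. SDK1 runs from 3341080 to 4308631 (hg19, plus strand), while its window is 4129435 to 4129734 (GRCh38.p14). Such windows were kept in the shares below. CpG observed/expected is the number of CG pairs relative to that predicted from the C and G content, and promoters of broadly expressed genes are typically rich in CpG. Its median was 0.774 for Panc-1 genes (quartiles 0.574 and 0.929) and 0.397 for AsPC-1 genes (0.188 and 0.758). A value of 0.6 or more was reached by 46 of the 64 Panc-1 promoters (71.9%) and 12 of the 37 AsPC-1 promoters (32.4%). The share was 91.4% of 3325 genes with 10 RPKM or more in all 14 libraries, 31.9% of 4474 genes with 0.5 RPKM or less in all 14, and 67.1% of all 15123 genes matched. The AsPC-1 share lay near that of genes silent in both lines, and the Panc-1 share between those of the silent and the widely active genes. DNA methylation was not measured.

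**Figure D4:**
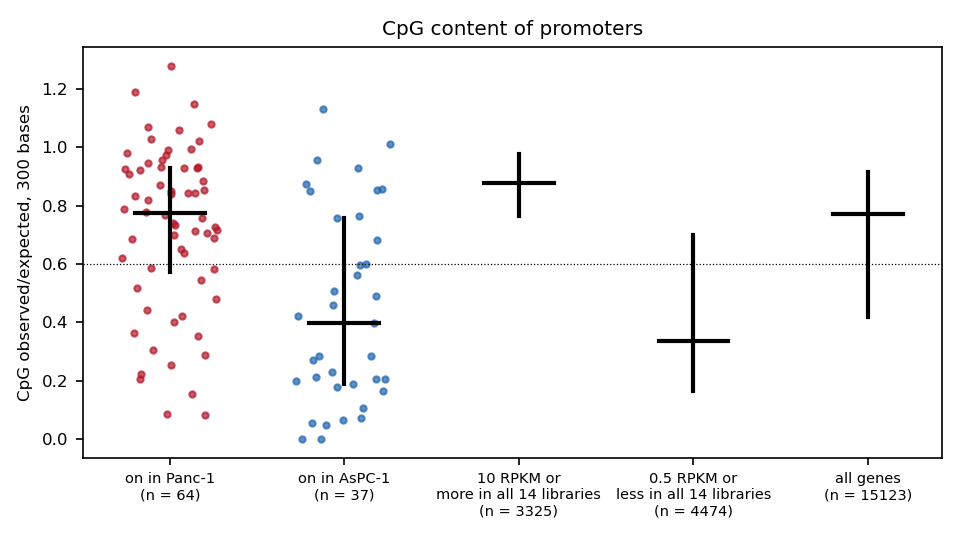
CpG observed/expected over 300 bases of promoter for the on/off genes (1 point each) and, as bars, the median and quartiles of each set, with the number of promoters below each name and a dotted line at 0.6. The median is 0.774 for Panc-1 genes and 0.397 for AsPC-1 genes, beside 0.877 for genes on in all 14 libraries and 0.337 for genes off in all 14.

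To show this range, the 20 genes of each direction with the highest minimum were taken among named genes with a matched promoter. Their promoters with the lowest and highest CpG observed/expected are printed 5′ to 3′ with each CG in capitals. Those on in Panc-1 are SERPINA3 (chr14:94612141-94612440, plus strand, 3 CG pairs) and CBS (chr21:43076328-43076627, minus strand, 50 CG pairs). CBS is an enzyme of homocysteine breakdown. Those on in AsPC-1 are C4BPB (chr1:207088610-207088909, plus strand, 1 CG pair) and CDKN2A (chr9:21995275-21995574, minus strand, 28 CG pairs). The CDKN2A window was not checked against the start used for the RPKM, which is 21994490 (hg19, minus strand).
SERPINA3: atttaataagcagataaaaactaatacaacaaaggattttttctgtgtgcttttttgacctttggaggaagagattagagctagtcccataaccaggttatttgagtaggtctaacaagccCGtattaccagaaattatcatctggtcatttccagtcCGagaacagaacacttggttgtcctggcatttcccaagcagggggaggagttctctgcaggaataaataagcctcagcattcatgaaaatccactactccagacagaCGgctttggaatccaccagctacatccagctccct
CBS: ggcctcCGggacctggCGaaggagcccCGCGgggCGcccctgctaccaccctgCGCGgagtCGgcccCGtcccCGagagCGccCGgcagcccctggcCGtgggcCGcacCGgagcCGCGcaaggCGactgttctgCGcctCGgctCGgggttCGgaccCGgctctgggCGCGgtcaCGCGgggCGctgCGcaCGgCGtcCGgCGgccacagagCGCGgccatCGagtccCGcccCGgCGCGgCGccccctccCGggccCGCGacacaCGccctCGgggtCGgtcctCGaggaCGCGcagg
C4BPB: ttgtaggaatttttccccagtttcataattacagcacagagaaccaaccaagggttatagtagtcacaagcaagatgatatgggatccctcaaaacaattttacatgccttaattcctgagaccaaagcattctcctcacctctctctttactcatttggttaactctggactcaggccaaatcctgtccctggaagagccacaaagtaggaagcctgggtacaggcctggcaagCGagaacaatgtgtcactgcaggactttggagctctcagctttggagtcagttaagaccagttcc
CDKN2A: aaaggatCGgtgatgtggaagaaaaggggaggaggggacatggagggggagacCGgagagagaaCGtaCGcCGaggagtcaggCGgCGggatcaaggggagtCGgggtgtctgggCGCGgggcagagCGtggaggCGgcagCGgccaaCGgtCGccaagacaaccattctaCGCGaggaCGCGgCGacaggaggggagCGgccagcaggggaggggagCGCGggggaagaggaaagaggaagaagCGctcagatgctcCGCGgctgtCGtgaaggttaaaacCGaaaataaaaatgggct
CBS at 1.03 and CDKN2A at 1.13 carry CpG pairs throughout, whereas SERPINA3 at 0.224 and C4BPB at 0.0654 carry almost none, so each direction holds both kinds.

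Short motifs were searched on both strands of the same promoters, counting a promoter once per motif. GGGCGG, a GC box, occurred in 67.2% of Panc-1 and 29.7% of AsPC-1 promoters, beside 59.4% of all. TATAAA occurred in 9.38% and 8.11%, beside 9.26%, and CACCTG, an E-box, in 25% and 35.1%, beside 19.8%. TGANTCA, the AP-1 site, occurred in 0 of 64 Panc-1 promoters and 3 of 37 AsPC-1 promoters (8.11%), beside 5.72% of all. A match is a string of letters in this window and says nothing of binding.

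Between 24 h and the earlier times, the on/off genes were called at shares near those of all genes tested. Within each line the 24 h libraries of both ligands were compared with the mean of the 1 h and 5 h libraries, with ligand as a term, in limma over all genes. Of the 95 Panc-1 genes, 21 were higher and 21 lower at 24 h (22.1% each), beside 20.9% higher and 23.2% lower of all 12373 genes tested. Of the 53 AsPC-1 genes, 16 were higher (30.2%) and 8 lower (15.1%), beside 26.8% and 16.8% of 11783. Among genes with 10 RPKM or more in every library of the line, 16.9% were higher and 29.0% lower in Panc-1, and 21.7% higher and 19.6% lower in AsPC-1. Setting the median of all genes to the same level in every library moved AsPC-1 changes by 0.12 (log2) and made the AsPC-1 lower calls 13 in place of 8. Without the filter on low values, limma called 6 higher and 3 lower of the Panc-1 genes and 4 higher and 3 lower of the AsPC-1 genes; among the genes named below the calls of PRAME, CD40, STC2, MYEF2, ELOVL2, CYP3A5, CPVL, THBS2, B3GALT5 and MOGAT3 were then lost, with adjusted p of up to 0.302.

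In Panc-1, SERPINA3 had 71.4 (EGF) and 94.7 RPKM (ANG) at 24 h, against 24.0 to 26.0 RPKM in the 4 libraries of 1 h and 5 h. Its change was 1.70 ± 0.09 (log2, SE; adjusted p = 0.000745, limma). CCL5 had 61.8 and 68.8 RPKM at 24 h, against 18.5 to 24.1 RPKM, a change of 1.56 ± 0.10 (adjusted p = 0.000795, limma). PRAME had at least 49.2 RPKM in both 24 h libraries, against 18.99 to 30.9 RPKM (0.96 ± 0.10). For all of these the groups did not overlap and the mock library lay with the 24 h ones. CD40, a receptor of the TNF family, and SRGN, a proteoglycan of secretory granules, were the other genes with the largest rises, by 0.82 and 0.80.

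STC2, a secreted glycoprotein, went the other way in Panc-1, with 22.9 (EGF) and 17.1 RPKM (ANG) at 24 h, against 47.8 to 51.5 RPKM at 1 h and 5 h. Its change was -1.27 ± 0.11 (adjusted p = 0.00123, limma). MAP1B had 47.8 and 37.9 RPKM at 24 h, against 62.8 to 70.3 RPKM (-0.64 ± 0.07). MYEF2, ELOVL2, which elongates polyunsaturated fatty acids, and CES1 fell by 0.68, 0.61 and 0.58.

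In AsPC-1, NPSR1, the receptor of neuropeptide S, had 35.0 (EGF) and 30.4 RPKM (ANG) at 24 h, against 10.6 to 11.8 RPKM at 1 h and 5 h, a change of 1.48 ± 0.11 (adjusted p = 0.00078, limma). The brush border genes MYO1A and EPS8L3 rose by 1.39 and 1.26, with MYO1A at 44.5 and 48.6 RPKM at 24 h against 16.3 to 19.6 RPKM. CYP3A5 and CPVL rose by 1.33 and 1.23, but mostly in the ANG library: CYP3A5 had 21.1 (EGF) and 54.7 RPKM (ANG) at 24 h against 11.3 to 14.6 RPKM, and without the AsPC-1 ANG library of 5 h the call of CPVL was lost (adjusted p = 0.0792, limma). Leaving out the 24 h ANG or the 24 h EGF library moved the change to 0.51 or 1.94 for CPVL and to 0.77 or 1.89 for CYP3A5. MCC, a colorectal tumour suppressor, had 11.6 and 10.0 RPKM at 24 h against 19.9 to 21.9 RPKM, a change of -0.91 ± 0.10 (adjusted p = 0.00222, limma). DTX4, a ubiquitin ligase of the Deltex family, B3GALT5 and MOGAT3, which acylates monoacylglycerol, fell by 0.88, 0.70 and 0.66. THBS2, a matrix glycoprotein, fell by 0.79 (adjusted p = 0.0479, limma), a call lost under 8 of 13 alternatives with adjusted p of 0.00222 to 0.302. Its change was -1.35 without the 24 h ANG library and -0.23 without the 24 h EGF library.

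Mock libraries sat on the 24 h side: for 32 of 42 Panc-1 genes called and 23 of 24 AsPC-1 genes called, the mock level was nearer to the 24 h mean than to that of 1 h and 5 h (76.2% and 95.8%). The same was true of 82.8% of all 5455 genes called in Panc-1 and 96.4% of all 5134 called in AsPC-1.

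**Figure D5:**
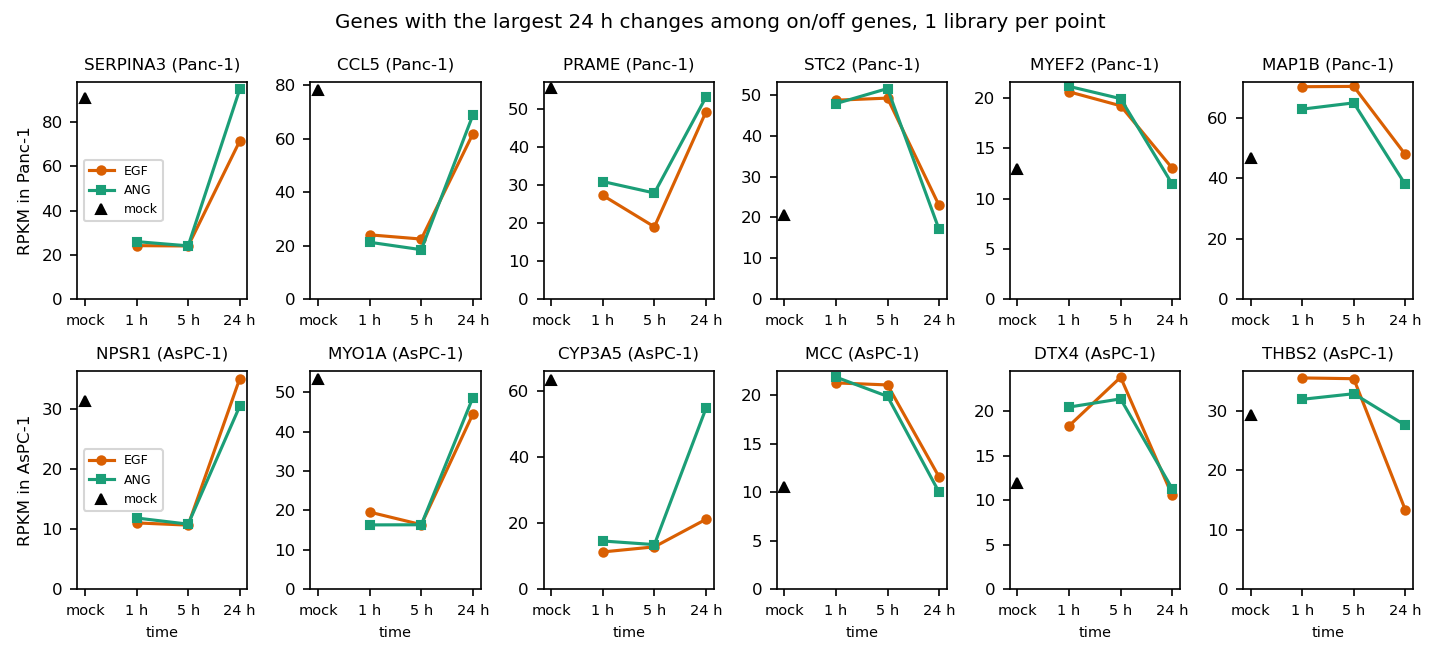
RPKM in mock, at 1 h, 5 h and 24 h (horizontal) with EGF (circles) and ANG (squares), 1 library per point, for the 3 genes with the largest rise and the 3 with the largest fall at 24 h in Panc-1 (upper) and AsPC-1 (lower). SERPINA3 stands at 71.4 and 94.7 RPKM at 24 h against 24.0 to 26.0 RPKM at 1 h and 5 h, and CYP3A5 in AsPC-1 at 21.1 RPKM with EGF and 54.7 RPKM with ANG.

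EGF against ANG over the 3 times gave no call among these genes in either line. At an unadjusted p under 0.05 in limma, 17 of the 95 Panc-1 genes (17.9%) and 9 of the 53 AsPC-1 genes (17.0%) differed, beside 1522 (12.3%) of the genes tested in Panc-1, and 1308 (11.1%) of those tested in AsPC-1. With p adjusted over all genes, 3 were called in Panc-1 (0.0242%) and 0 in AsPC-1. Over the 95 Panc-1 genes the median change, EGF against ANG, was 0.005 (log2, quartiles -0.081 and 0.098). FERMT2, a kindlin of focal adhesions, is not a typical case. It had 23.1, 18.7 and 17.2 RPKM at 1, 5 and 24 h of EGF in Panc-1, and 15.1, 14.6 and 14.3 RPKM with ANG.

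At 24 h alone, where each ligand had 1 library per line and no test is possible, AsPC-1 genes were spread more widely. On the log2(RPKM + 1) scale 13 of the 53 AsPC-1 genes (24.5%) were lower by 1 or more with EGF than with ANG, beside 2.44% of all 11783 genes and 1.16% of those with 10 RPKM or more in every AsPC-1 library. LGALS2 had 18.97 RPKM with EGF and 90.2 RPKM with ANG, and 94.1 RPKM in mock. GPA33, an intestinal surface antigen, had 12.6 RPKM with EGF, 44.8 RPKM with ANG and 47.1 RPKM in mock, and ALDH3A1 had 13.02, 44.4 and 46.3 RPKM. MUC13 had 19.4, 48.0 and 57.5 RPKM. A single gene, LYPD3, a surface protein of stratified epithelia, was higher by 1 or more with EGF, at 27.0 RPKM against 11.03 RPKM with ANG and 10.8 RPKM in mock (1.13% of all genes, and 1.26% of those with 10 RPKM or more). None of the 53 was lower by 1 or more with ANG at 24 h than in mock, beside 0.0424% of all genes. In mock comparisons 15 of the 53 AsPC-1 genes (28.3%) were lower with EGF at 24 h, beside 2.89% of all genes, and 1, LYPD3, was higher, beside 2.73%; with ANG none was higher, beside 1.58%. In Panc-1, MEG3 alone of the 95 differed by 1 or more between the ligands, at 41.1 RPKM with EGF and 19.9 RPKM with ANG, beside 0.42% of all genes higher and 0.687% lower (0.108% and 0.557% of genes with 10 RPKM or more). Against mock none of the 95 was past this size with EGF, beside 2.14% of all genes higher and 0.162% lower, or with ANG, beside 2.72% and 0.0727%. LGALS2, GPA33, LYPD3 and FERMT2 were named after their values were seen.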

How the data were processed

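Total RNA of 14 libraries, 7 per line, was analysed. The deposited values are log2 RPKM per gene, 1 file per library, per the file headers, and coordinates follow build hg19, which the submitters' processing notes name; which aligner, counter and annotation were used is not given in any source used here. RPKM was recovered to 0.01, with the lowest log2 value of -8.966 read as listed 0. Counts were not rebuilt, for lack of transcript lengths, and depth was estimated from short genes. Limma 3.58.1 (R 4.3.3) with a variance trend was fitted on log2(RPKM + 1) to genes reaching 1 RPKM in 2 or more libraries, with Benjamini-Hochberg adjustment at 0.05; fold changes on this scale understate changes of low genes. Each line's 6 treated libraries were fitted alone (time and ligand; 2 residual degrees of freedom); the line comparison used all 14 with condition as a block. Nothing in the labels says that libraries came from separate cultures, so the p-values reflect the spread of these libraries alone, which may be technical. The script was tested on simulated data. Promoters came from RefSeq (GRCh38.p14) by symbol or synonym and chromosome, with no check of position.

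The on/off genes and gene lists were chosen with earlier results of these data known. Named genes were the 15 with the highest minimum in each direction, up to 5 per list, members of clusters of 3 or more, the 5 largest called changes each way and the genes nearest the thresholds. Genes of unnamed loci, microRNAs, pseudogenes and sex-chromosome markers were counted, not described. Genes named outside this rule, among them the neighbours of clusters and HOMER2, HDGFRP3, HEG1, PRR15 and CBS, were chosen after their values were seen. Alternatives covered thresholds, scaling, distance, pseudocount, filter, trend, model and each library left out. The share-based rule was added after the data were seen. Some marker and motif results are not reported here.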

Additional observations from a re-analysis of the deposited data

How the results depend on the processing

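The number of on/off genes followed the thresholds. With 5 in place of 10 RPKM as the on limit there were 173 in Panc-1 and 105 in AsPC-1, and with 20 RPKM 35 and 7. With 0.25 RPKM as the off limit there were 69 in Panc-1 and 9 in AsPC-1, and with 1 RPKM 129 and 104. Leaving out each library gave 95 to 98 (Panc-1) and 53 to 57 genes (AsPC-1). Scaling the libraries gave 92 and 54, and the 2% share 112 and 64. Within 1000 kb of another lay 16 Panc-1 and 10 AsPC-1 genes.

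For 24 h against 1 h and 5 h, no filter on low values gave 6 higher and 3 lower calls in Panc-1 (1458 over all genes) and 4 and 3 in AsPC-1 (1863). Genes with 10 RPKM or more in every library gave 2723 and 2121 calls over all genes. Centring libraries on their median, or both lines in 1 fit, gave 13 lower calls in AsPC-1; with centring the AsPC-1 calls over all genes were 2734 higher and 2975 lower, against 3154 and 1980. Leaving out each library gave 13 to 20 higher and 10 to 16 lower in Panc-1 (2972 to 4422 over all genes) and 12 to 25 higher and 5 to 12 lower in AsPC-1 (3689 to 4448). Calls changed by over 1.5 times without Panc-1 ANG 5 h (10 lower), ANG 24 h (12 lower) and EGF 24 h (13 higher, 13 lower), and without AsPC-1 EGF 24 h (25 higher) and EGF 5 h (5 lower).

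EGF against ANG over all genes of Panc-1, 3 calls in limma, gave 1 with a pseudocount of 0.1, 0 without a filter, 30 over genes with 10 RPKM or more, 1 with centring, 0 without a trend, 7 with 1 h and 5 h joined, 0 with both lines in 1 fit, and 0 to 24 with a library left out. In AsPC-1 it gave 7 with both lines in 1 fit and 0 to 6 with a library left out. Causes of these shifts were not tested. No direction reversed among the 24 h changes of single genes recomputed. Over all genes, the side with more calls did change. At 24 h, 61.4% of AsPC-1 calls were higher, against 47.9% with centring, and 47.5% of Panc-1 calls, against 51.6%. EGF against ANG in Panc-1 gave 0 higher and 3 lower, but 23 and 7 over genes with 10 RPKM or more. The labels give no replicate numbers, so libraries were matched by their conditions alone. Condition in the line comparison and time in the ligand comparison were terms of the fits as reported. At 0.5 RPKM depth leaves few reads for short transcripts.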
